A study of Mus musculus with 6 samples.

Results

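Heme breakdown and iron handling were followed through 10 genes in the livers of Fah-deficient mice after short-term withdrawal of NTBC, a drug that blocks an early step of tyrosine degradation. The genes were Hmox1, Hmox2, Blvra, Blvrb, Fth1, Hamp, Slc40a1, Tfrc, Trf and Hpx, and every array probe set annotated to 1 of them alone was taken. This gave 14 probe sets for 9 of the 10 genes, out of 18193 genes measured in this way and 45037 probe sets in all. Trf had no probe set of its own, since the array's probe set for it is shared with Srprb. The mice were FRG mice, which lack Fah, Rag2 and Il2rg on a C57Bl/6J background, and all were males of 12 weeks kept on a diet low in tyrosine and phenylalanine. In the 3 FRG-7dNTBC mice the drug was stopped at 11 weeks of age, 7 days before the livers were taken. The other 3 mice, FRG+NTBC, drank water with 16 mg/L of the drug throughout. Every mouse carried the triple knockout, so the comparison is between livers of the same mutant with and without the drug. RNA came from whole liver, and in such bulk samples fewer cells of a type cannot be told apart from less RNA per cell.

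Heme oxygenase opens the heme ring and releases iron, carbon monoxide and biliverdin, which biliverdin reductase turns into bilirubin. The iron is then stored in ferritin or leaves the cell through ferroportin, the product of Slc40a1. Cells take up iron from plasma transferrin through the transferrin receptor Tfrc, and the hepatocyte hormone hepcidin, encoded by Hamp, removes ferroportin from the cell surface. The liver makes transferrin, hemopexin and hepcidin, stores most of the body's iron reserve, and holds the macrophages that clear old red cells.

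Values are array intensities, log2 fold changes are FRG-7dNTBC minus FRG+NTBC, folds between the groups are ratios of geometric means, and a probe set was called at an adjusted p under 0.05 from limma over all probe sets. Of the 14 probe sets, 7 were called higher and none was called lower, against 14% of all probe sets called higher and 13.9% called lower (27.9% in either direction). At an unadjusted p under 0.05, 2 further probe sets were lower, 1 of Hmox2 and 1 of Slc40a1. Hmox1, Blvrb, Fth1 and Tfrc were called at each of their probe sets, and Hmox2, Blvra, Hamp, Slc40a1 and Hpx at none. The values of the livers did not overlap between the groups at 11 of the 14 probe sets, where this held for 44.1% of all probe sets. At least 2-fold higher and called were 5 probe sets, those of Hmox1, Blvrb and Tfrc, against 7.61% of the array, and none was 2-fold lower and called, against 5.12%. The median log2 fold change was 0.42 over the 14 probe sets and -0.08 over all probe sets. Scaling the arrays to a common 75th percentile moved the median of all probe sets to -0.21 and the share of higher among all calls to 35.7%, against 50.1% in the values as deposited, and a change is to be read against these medians.

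The sequence before the start of each gene was read from RefSeq (build GRCm38.p6), which gave 12 windows of 250 bases for 7 of the genes; Hmox1, Slc40a1 and Trf had no entry in the table used. Both strands were searched for TGACNNNGC, the core of the antioxidant response element to which NRF2 binds, CACGTG, the E-box, GGCGCC, the BMP response element, and TTCNNNGAA, the site of STAT factors. A window of each of the 2 biliverdin reductases, of which 1 was called and the other was not, and that of Hamp are shown. Matches are in capitals. The Blvra window is chr2:127070407-127070656 on the plus strand, that shown for Blvrb chr7:27447728-27447977 on the plus strand and that of Hamp chr7:30944030-30944279 on the minus strand. Another Blvrb window, beginning at chr7:27452168, held no match and is not shown.
Blvra: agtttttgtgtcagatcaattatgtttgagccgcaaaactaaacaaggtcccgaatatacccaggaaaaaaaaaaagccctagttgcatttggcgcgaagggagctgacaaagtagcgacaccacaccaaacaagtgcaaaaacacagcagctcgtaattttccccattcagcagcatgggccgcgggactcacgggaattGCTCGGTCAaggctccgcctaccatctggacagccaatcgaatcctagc
Blvrb: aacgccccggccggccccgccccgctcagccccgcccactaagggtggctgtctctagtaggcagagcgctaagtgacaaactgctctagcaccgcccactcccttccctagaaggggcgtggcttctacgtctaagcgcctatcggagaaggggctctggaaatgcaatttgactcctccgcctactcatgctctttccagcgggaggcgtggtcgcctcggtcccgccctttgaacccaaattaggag
Hamp: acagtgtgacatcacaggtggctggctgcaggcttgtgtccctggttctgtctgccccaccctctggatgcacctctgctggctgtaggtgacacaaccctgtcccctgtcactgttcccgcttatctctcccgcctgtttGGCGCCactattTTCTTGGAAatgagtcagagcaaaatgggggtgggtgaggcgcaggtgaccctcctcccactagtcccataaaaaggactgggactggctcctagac

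The antioxidant core was found in 2 of the 12 windows, those of Blvra, from 49 to 41 bases before the start, and of Hpx, and in 10.2% of all promoter windows of this length. Neither gene was called, and no window of Blvrb, Fth1 or Tfrc held the core. Hmox1 had no window to search. Sequence outside these short windows was not searched, so a window without a match does not show that a gene lacks the element. Whether NRF2 acts on these genes was not tested. The BMP element was found for 3 genes, Hmox2, Tfrc and Hamp, in 4 windows, of which 2 are windows of Hmox2 whose starts lie 65 bases apart and which share a site, so the count of windows is not one of separate sites to set against the 9.59% of all windows with a match. In Hamp it stood 109 to 104 bases before the start. A STAT match followed it in the Hamp window, from 97 to 89 bases before the start, and in none of the other 11 windows (7.02% of all windows). The E-box was in none of the 12 windows and in 6.02% of all windows.

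**Figure D1:**
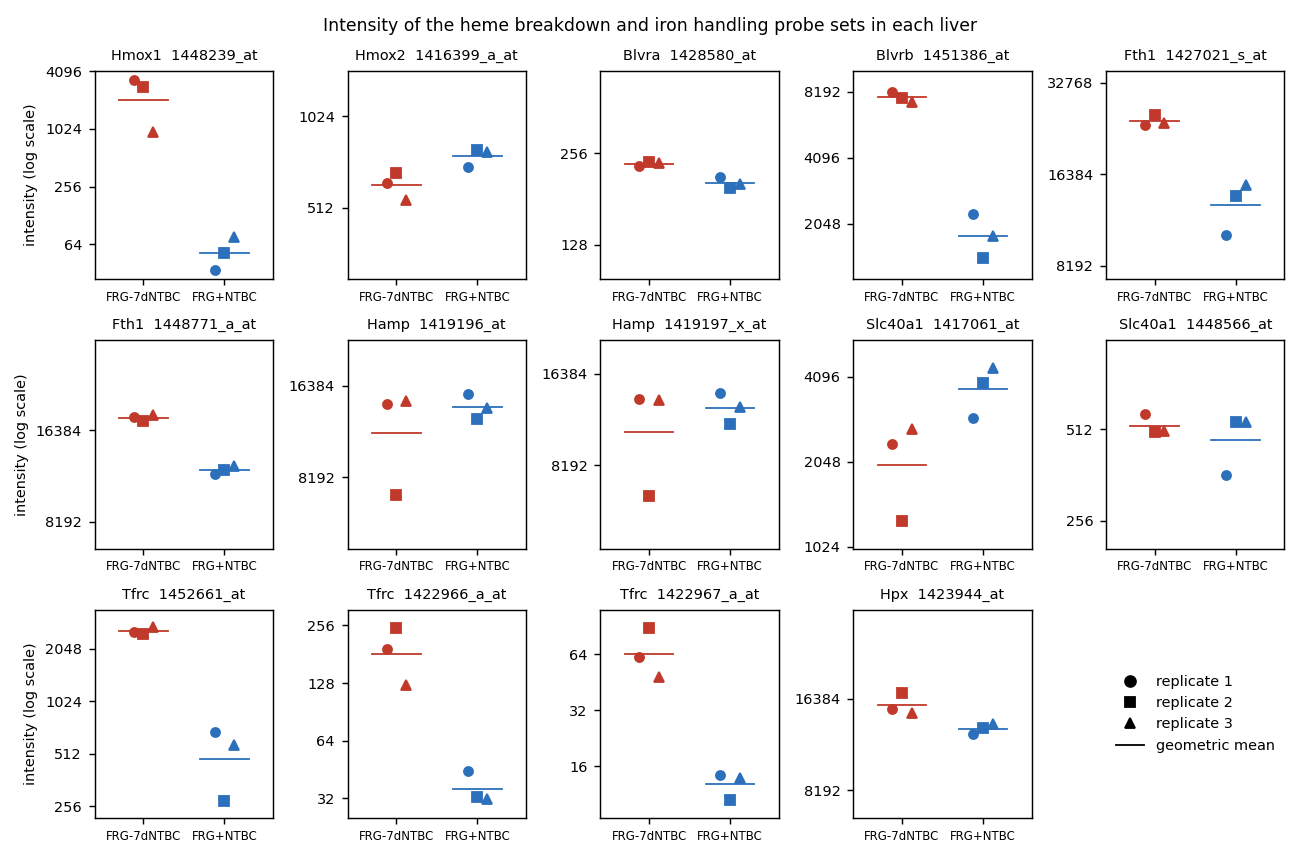
Intensity (log scale) of each of the 14 probe sets in the 3 FRG-7dNTBC livers (red, left) and the 3 FRG+NTBC livers (blue, right), with 1 marker shape per replicate number and a line at the geometric mean. The groups are apart at 11 probe sets, and FRG-7dNTBC replicate 2 lies low at both probe sets of Hamp and at 1 of Slc40a1.

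Hmox1, the inducible heme oxygenase, had by far the largest change of the 9 genes. Its intensity was 3327, 2798 and 955 in the FRG-7dNTBC livers, against 34.8, 52.4 and 75.6 in the FRG+NTBC livers. The lowest liver after withdrawal was thus well above the highest liver on the drug, while the FRG-7dNTBC livers differed among themselves by 3.48-fold, with replicate 3 the lowest. The mean was 2360 ± 1245 in FRG-7dNTBC and 54.2 ± 20.5 in FRG+NTBC livers (SD, n = 3 each), and the ratio of the geometric means was 40.1, a log2 fold change of 5.33 (standard error 0.47, 95% confidence interval 4.24 to 6.41, limma adjusted p = 0.000208). On the drug, Hmox1 was not far above the median intensity of the arrays, 33.1 to 36.5, so the size of its change is less exact than its direction. With 16 added to each value before the log2, the log2 fold change was 4.94.

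Hmox2, the constitutive heme oxygenase, was not called. It read 617, 666 and 545 in FRG-7dNTBC livers, against 699, 792 and 781 in FRG+NTBC livers. Each liver after withdrawal was below each liver on the drug, by a small margin. The log2 fold change was -0.32 (standard error 0.13, 95% confidence interval -0.62 to -0.02, limma adjusted p = 0.111), so a change by more than 0.62 on the log2 scale lies outside the interval. With array weights, quantile normalization or scaling to a common 75th percentile the adjusted p was 0.0485, 0.0161 and 0.0283, and Hmox2 counted as lower.

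Of the biliverdin reductases, Blvrb was called higher and Blvra was not called. Blvrb, a flavin and biliverdin reductase, had intensities of 8192, 7697 and 7332 in FRG-7dNTBC livers, against 2272, 1428 and 1795 in FRG+NTBC livers. The FRG-7dNTBC livers lay close together, within 1.12-fold, and far above the others. Blvrb averaged 7740 ± 432 in FRG-7dNTBC and 1832 ± 423 in FRG+NTBC livers (SD, n = 3 each), and the ratio of the geometric means was 4.3, with a log2 fold change of 2.10 (standard error 0.18, limma adjusted p = 0.000179). Blvra, the main enzyme that makes bilirubin in the adult, read 232, 241 and 237 in FRG-7dNTBC livers and 214, 197 and 204 in FRG+NTBC livers. Its groups did not overlap, but they stood close to each other. The log2 fold change was 0.21 (standard error 0.11, 95% confidence interval -0.05 to 0.47, limma adjusted p = 0.207). Without moderation of the variances the adjusted p of Blvra was 0.0422 and with 16 added to each value 0.0457. Whether the change of Blvrb differs from that of Blvra, or that of Hmox1 from that of Hmox2, was not tested.

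Bilirubin is taken up from blood, bound, conjugated and exported to bile, and 5 of 6 listed genes of these steps were measured. Of these, 4 were higher and 1 was lower, against 17.4% and 12.7% of all genes at their brightest probe set (30.2% in either direction). The canalicular exporter Abcc2, which carries conjugated bilirubin into bile, had a log2 fold change of 1.86 (standard error 0.15, limma adjusted p = 0.000155). The glutathione transferases Gsta4 and Gsta3, of a class that binds bilirubin in the cell, had 2.16 and 1.27. Gsta3 was called at 1 of its 2 probe sets. The fourth higher gene, the exporter Abcc3, was close to the threshold (log2 fold change 0.45, limma adjusted p = 0.0466) and kept its call in 5 of 15 alternative settings. The call of Gsta3 (adjusted p = 0.0179) was lost without FRG+NTBC replicate 1 (adjusted p = 0.0683), without FRG+NTBC replicate 2 (0.0662) or when FRG-7dNTBC replicate 1 was left out (0.0655), and as Abcc3 was lost too, each of these left 2 genes higher. Slco1b2, an uptake carrier for bilirubin and bile acids, fell to 523, 685 and 365 in FRG-7dNTBC livers, against 4068 in each FRG+NTBC liver, 8.02-fold lower (limma adjusted p = 9.5e-05), and 3 of its 5 probe sets were called lower.

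**Figure D2:**
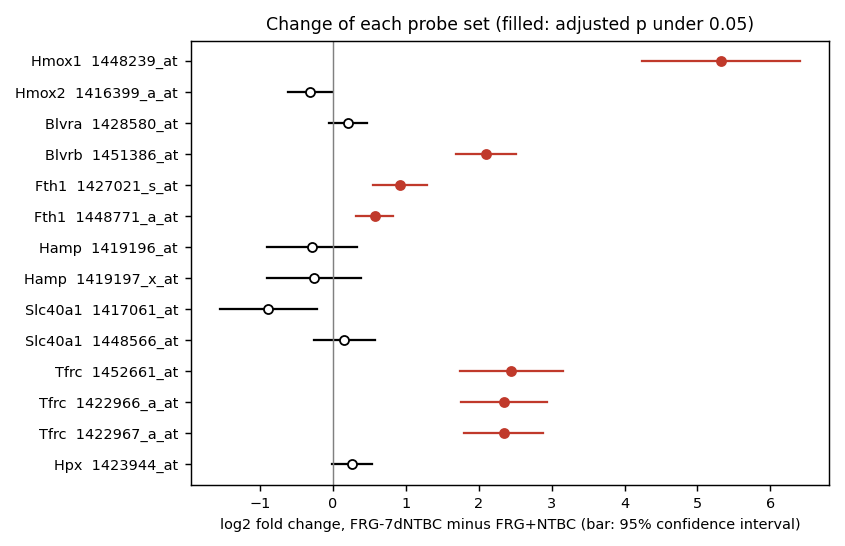
The horizontal axis gives the log2 fold change, FRG-7dNTBC over FRG+NTBC, of each member probe set with its 95% confidence interval from limma; filled red points were called at an adjusted p under 0.05. The 7 filled points belong to Hmox1, Blvrb, Fth1 and Tfrc, from 0.57 for 1 probe set of Fth1 to 5.33 for Hmox1, and the intervals are not adjusted for the number of probe sets.

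Hemopexin (Hpx), the plasma protein that carries free heme to the liver, was not called. Its intensity was 15181, 17080 and 14766 in FRG-7dNTBC livers, against 12503, 13125 and 13494 in FRG+NTBC livers. The groups stood apart by a small margin, with a log2 fold change of 0.26 (standard error 0.12, 95% confidence interval -0.01 to 0.54, limma adjusted p = 0.145). Both groups were near the top of the array scale with a mean above 99.9% of the probe sets. Haptoglobin (Hp), which binds free hemoglobin, had a log2 fold change of -0.19 (limma adjusted p = 0.41).

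Of the 9 genes listed for the transport and uptake of heme and hemoglobin, 4 were higher and 1 was lower in FRG-7dNTBC livers. Among all genes 17.4% were higher and 12.7% lower. Slc48a1, which moves heme from the lysosome into the cytosol, read 3641, 3902 and 3591 in FRG-7dNTBC livers, against 478, 405 and 481 in FRG+NTBC livers. This was an 8.19-fold rise with little spread among livers (log2 fold change 3.03, standard error 0.13, limma adjusted p = 1.29e-05). Flvcr1, the heme exporter of the cell surface, had 564, 247 and 580 in FRG-7dNTBC livers, against 31.1, 27.7 and 55.7 in FRG+NTBC livers (log2 fold change 3.57, standard error 0.38, limma adjusted p = 0.000437), at 1 of its 2 probe sets. Its relative Flvcr2 had a log2 fold change of 1.56, and Cd163, the hemoglobin receptor of macrophages, had 1.01 (adjusted p = 0.0287). The call of Cd163 was lost without FRG+NTBC replicate 1, 2 or 3 (adjusted p = 0.0519, 0.108 and 0.0681). Lrp1, the receptor for heme bound to hemopexin, was the lower gene (-1.34, standard error 0.22, limma adjusted p = 0.00324, or 0.0534 without moderation).

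Some markers of macrophages, but not all, were higher, as were Hmox1, Slc48a1 and Cd163, which macrophages that clear red cells express as well. Of 9 markers of Kupffer cells and macrophages, 5 were higher (Cd68, Cd5l, Vsig4, Marco and Timd4) and none was lower. Among all genes 17.4% were higher and 12.7% lower. Vsig4, Marco and Timd4 lost their call without FRG-7dNTBC replicate 1 or without FRG+NTBC replicate 2, which left 2 markers higher, Vsig4 and Marco lost it without FRG+NTBC replicate 1, which left 3, and without moderation Cd68 alone was called. Their summed intensity was 2295 to 5855 in FRG-7dNTBC and 1816 to 2826 in FRG+NTBC livers. The Kupffer cell lectin Clec4f (log2 fold change 0.55, limma adjusted p = 0.207) and Adgre1 (-0.08, adjusted p = 0.865) were not called. Within FRG-7dNTBC, Slc48a1 varied by under 1.1-fold and the macrophage sum by more than 2-fold. That sum includes Csf1r and Lyz2, which were not called and varied by 3.73-fold and 3.36-fold. The called markers varied by 1.2-fold (Timd4) to 2.66-fold (Vsig4). The part of these cells in the results was not tested. Of 6 measured markers of red cells and their precursors none was called at its brightest probe set, and at an unadjusted p under 0.05 there was none either. Epb42 was called higher at 1 of its 2 probe sets. The 6 markers summed to 146 to 170 in FRG-7dNTBC and 167 to 204 in FRG+NTBC livers. Only 1 of these 6 stayed when dim probe sets were left out, so they say little about red cells.

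Among 6 genes listed for the control of Hmox1, 4 were higher and none was lower, against 17.4% and 12.7% of all genes. Mafg, counted as not called, was called lower at 1 of its 2 probe sets. Nfe2l2, the gene of NRF2, had a log2 fold change of 1.66 (standard error 0.23, limma adjusted p = 0.00133), and the small MAF proteins Maff and Mafk, its partners on DNA, had 1.39 and 1.23. Bach1, the heme-sensitive repressor of Hmox1, was called higher as well, at 1 of its 2 probe sets. It read 1924, 2006 and 2150 in FRG-7dNTBC livers, against 1489, 1090 and 1144 in FRG+NTBC livers (log2 fold change 0.72, standard error 0.15, limma adjusted p = 0.00929), a call lost without moderation of the variances (adjusted p = 0.0533). Keap1, which holds NRF2 in the cytosol, was at -0.13 (adjusted p = 0.54).

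For heme synthesis, the supply side of the pathway, 2 of 8 measured genes were higher and 3 lower, against 17.4% and 12.7% of all genes. Alas1, the rate-limiting enzyme in the liver, rose to 5480, 3848 and 2557 in FRG-7dNTBC livers, against 1438, 617 and 313 in FRG+NTBC livers (log2 fold change 2.53, standard error 0.51, limma adjusted p = 0.00803), a call lost without moderation (adjusted p = 0.0955). The later enzymes Cpox and Ppox fell by 1.21 and 0.82 on the log2 scale, and Alas2, the isozyme of red cell precursors, fell by 1.67.

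Fth1, the heavy chain of ferritin, which oxidises iron for storage, was higher at both of its probe sets. At the brighter it read 23822, 25709 and 24154 in FRG-7dNTBC livers, against 10369, 13873 and 15076 in FRG+NTBC livers, and at the other 18054, 17560 and 18433 against 11747, 12161 and 12503. The groups were apart at each, and the spread among livers was largest on the drug at the brighter probe set. The fold was 1.9 at the brighter (log2 fold change 0.92, standard error 0.16, limma adjusted p = 0.004) and 1.48 at the other (0.57, standard error 0.11, adjusted p = 0.00688). Fth1 was among the brightest features of the arrays in both groups, above 99.9% of the probe sets. The name of the brighter probe set marks it as one that can match several transcripts.

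Of 6 measured genes for iron storage and release, 3 were higher and none was lower, against 17.4% and 12.7% of all genes. Ncoa4, which delivers ferritin to the lysosome for breakdown, had a log2 fold change of 0.85 (standard error 0.17, limma adjusted p = 0.00652, or 0.0538 without moderation), and Pcbp1, which loads iron into ferritin, had 0.76 (standard error 0.14, adjusted p = 0.00509). Lcn2, which binds the iron carriers of bacteria and is made by stressed hepatocytes and neutrophils, had a log2 fold change of 4.73 (standard error 0.47, limma adjusted p = 0.000343). It read 419, 120 and 474 in FRG-7dNTBC livers, against 11.4, 9.06 and 12.5 in FRG+NTBC livers. The livers on the drug were at the dim end of the arrays, so the size of this fold is uncertain. By limma none of 7 neutrophil markers was called, and at an unadjusted p under 0.05 there were 2, both lower. The 7 markers summed to 194 to 292 in FRG-7dNTBC and 196 to 269 in FRG+NTBC livers. With array weights S100a8 was called higher and Ngp lower, and with the replicate block S100a8 higher and Elane lower. When dim probe sets were left out, 4 of the 7 stayed. The part of neutrophils in the Lcn2 values was not tested.

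Tfrc, the receptor through which cells take up iron-loaded transferrin, was higher at all 3 of its probe sets. At the brightest it read 2557, 2487 and 2740 in FRG-7dNTBC livers, against 680, 274 and 576 in FRG+NTBC livers. The FRG-7dNTBC livers agree within 1.1-fold, while those on the drug spread over 2.48-fold, with replicate 2 the lowest. The mean was 2594 ± 131 in FRG-7dNTBC and 510 ± 211 in FRG+NTBC livers (SD, n = 3 each), and the ratio of the geometric means was 5.45, a log2 fold change of 2.45 (standard error 0.31, 95% confidence interval 1.74 to 3.15, limma adjusted p = 0.000886). The other probe sets gave a log2 fold change of 2.34 each, with adjusted p-values of 0.000497 and 0.000349. They were dimmer, at 193, 247 and 125 in FRG-7dNTBC against 44.6, 32.7 and 31.6 in FRG+NTBC livers, and at 61.8, 89.3 and 48.5 against 14.3, 10.5 and 13.7. At the dimmest the log2 fold change was 1.49 with 16 added to each value. Order among the FRG-7dNTBC livers was not shared by the probe sets, since replicate 3 was highest at the brightest and lowest at the others.

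Of 9 genes listed for iron uptake and reduction none was higher and 3 were lower at their brightest probe sets, against 17.4% and 12.7% of all genes. Other probe sets differed. Steap2, counted as not called, was called lower at 3 of its 5 probe sets, and Slc11a2, also not called, higher at 1 of its 4. Slc39a14 was called lower at 2 of its 4 probe sets and Steap3 at 1 of its 3. Tfr2, the second transferrin receptor, which senses iron-loaded transferrin on hepatocytes, fell to 1090, 1075 and 962 in FRG-7dNTBC livers, against 4390, 5078 and 4608 in FRG+NTBC livers. This is 4.5-fold lower, with little spread in either group (log2 fold change -2.17, standard error 0.12, limma adjusted p = 4.03e-05), and its other probe set was lower too. Slc39a14, a carrier for iron not bound to transferrin, fell by 0.97 (standard error 0.21, limma adjusted p = 0.0109, or 0.0852 without moderation). Steap3, which reduces iron in the endosome, was at -0.39 with an adjusted p of 0.0465, and without any 1 of the 6 livers its adjusted p was 0.0663 to 0.131.

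Slc40a1, which encodes ferroportin, the iron exporter, was not called at either of its probe sets, and they differ in direction. At the brighter it read 2369, 1261 and 2684 in FRG-7dNTBC livers, against 2937, 3902 and 4421 in FRG+NTBC livers. Each liver after withdrawal was below each on the drug, and FRG-7dNTBC replicate 2 was the lowest. The log2 fold change was -0.89 (standard error 0.29, 95% confidence interval -1.55 to -0.22, limma adjusted p = 0.0541), close to the threshold, and it passed in 6 of 15 alternative settings. Without FRG-7dNTBC replicate 2, the lowest liver, it was -0.55 (adjusted p = 0.0801), and without FRG-7dNTBC replicate 3 it was -1.10 (adjusted p = 0.0217). At the other probe set it read 576, 501 and 505 in FRG-7dNTBC livers, against 362, 541 and 541 in FRG+NTBC livers, and the groups overlapped (0.15, standard error 0.18, adjusted p = 0.57). Macrophages express Slc40a1 too, and 5 of 9 macrophage markers were higher, against 17.4% of all genes. Without FRG-7dNTBC replicate 1 or FRG+NTBC replicate 2 only 2 of these markers were higher. The part of macrophages in the Slc40a1 values was not tested. Of 4 genes for iron export and oxidation, the ferroxidase Heph was higher (2.03, limma adjusted p = 0.0209), from a dim level, and lost its call without FRG-7dNTBC replicate 1, FRG+NTBC replicate 1 or FRG+NTBC replicate 2 (adjusted p = 0.08, 0.0788 and 0.0618). Ceruloplasmin (Cp), the ferroxidase of plasma, fell by 0.53 (standard error 0.12, adjusted p = 0.0114), or by 0.49 without FRG+NTBC replicate 2 (adjusted p = 0.0509). Of the 8 probe sets of Cp, 2 were called lower and 1 higher.

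Hamp, the gene of hepcidin, was not called at either probe set. It read 14263, 7181 and 14563 in FRG-7dNTBC livers, against 15393, 12766 and 13873 in FRG+NTBC livers. Replicates 1 and 3 after withdrawal lay within the range of the livers on the drug, and replicate 2 was well below all the other livers. The log2 fold change was -0.29 (standard error 0.27, 95% confidence interval -0.90 to 0.32, limma adjusted p = 0.46), and without FRG-7dNTBC replicate 2 it was 0.05 (adjusted p = 0.861). The other probe set behaved alike, with 13588, 6517 and 13401 in FRG-7dNTBC livers, against 14165, 11191 and 12766 in FRG+NTBC livers (-0.26, standard error 0.28, adjusted p = 0.536), or 0.09 without FRG-7dNTBC replicate 2. Hamp2, a close copy of the gene, had a log2 fold change of -1.48 at its brighter probe set (standard error 0.52, limma adjusted p = 0.0695), and FRG-7dNTBC replicate 2 was lowest there too. Probes of the 2 genes may bind both transcripts.

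Of 25 measured genes that control hepcidin, 5 were higher, 5 lower and 15 not called, where 17.4% of all genes were higher and 12.7% lower. These counts take each gene at its brightest probe set, and other probe sets differed. Stat3 and Acvr1, counted as higher, each had 1 probe set called lower. Inhbb, Smad1, Smad5, Bmpr2, Acvr2a and Hfe, counted as not called, each had at least 1 called higher. None of the 15 had a probe set called lower. Without FRG+NTBC replicate 2, where Bmp6 and Stat3 lost their calls, 3 were higher, and with scaling to a common 75th percentile 8 were lower. Id1, a target of the BMP signal that also drives Hamp, read 891, 826 and 982 in FRG-7dNTBC livers, against 111, 72.0 and 108 in FRG+NTBC livers, a 9.45-fold rise (log2 fold change 3.24, standard error 0.19, limma adjusted p = 4.03e-05). Bmp6, the ligand that endothelial cells release when iron is high, had a log2 fold change of 0.99 (standard error 0.25, adjusted p = 0.0207), and its call was lost without FRG+NTBC replicate 1 (adjusted p = 0.0717) or replicate 2 (0.0752). Of 8 markers of sinusoidal endothelium, 2 (Lyve1 and Clec4g) were higher and none lower at their brightest probe sets. At an unadjusted p under 0.05, 4 were higher and none lower. Fcgr2b, counted as not called, was called higher at 3 of its 5 probe sets, and Clec4g at 1 of its 2. The 8 markers summed to 2607 to 3518 in FRG-7dNTBC and 1766 to 2737 in FRG+NTBC livers. The part of these cells in the rise of Bmp6 was not tested. Clec4g lost its call without FRG-7dNTBC replicate 1, FRG+NTBC replicate 1 or FRG+NTBC replicate 2, and the count was 4 when FRG-7dNTBC replicate 2 was left out.

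Other members of the hepcidin pathway were lower after withdrawal. Tmprss6, the protease that restrains hepcidin by cleaving hemojuvelin, fell to 2226, 1951 and 2077 in FRG-7dNTBC livers, against 4973, 6165 and 5873 in FRG+NTBC livers (log2 fold change -1.44, standard error 0.13, limma adjusted p = 0.000255). Smad4, through which the BMP signal reaches the nucleus, and Il6ra, the receptor of the interleukin that induces hepcidin in inflammation, fell by 1.48 and 2.16. Smad4 was called lower at 1 of its 3 probe sets and Il6ra at 1 of its 2. Hjv, which encodes hemojuvelin, and Hfe, the gene most often mutated in human hemochromatosis, were not called at their brightest probe sets (log2 fold change -0.38 and 0.43, adjusted p = 0.0933 and 0.0884 from limma). Both passed in 2 alternative settings, Hjv on the lower and Hfe on the higher side, and 1 of the 2 probe sets of Hfe was called higher.

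**Figure D3:**
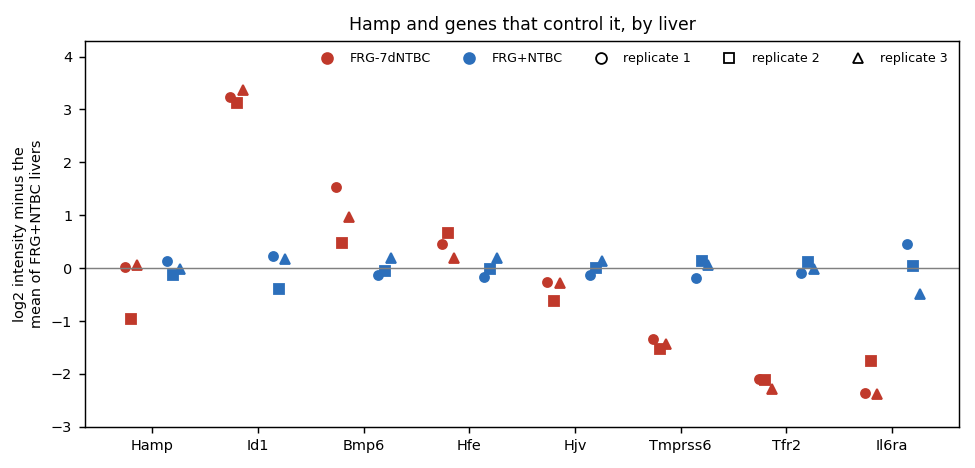
Log2 intensity of Hamp and of 7 genes that sense iron or control it, each as the difference from the mean of the FRG+NTBC livers, in 3 FRG-7dNTBC livers (red) and 3 FRG+NTBC livers (blue), with 1 marker shape per replicate number. Id1 was higher by 3.24 and Tfr2 lower by 2.17 in FRG-7dNTBC livers, while replicates 1 and 3 of FRG-7dNTBC lie among the FRG+NTBC livers for Hamp.

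The iron regulatory proteins, which bind the messages of ferritin, ferroportin and Tfrc when iron is low, were not called at the level of their own messages. Aco1, which encodes the first of them, had a log2 fold change of -0.10 (limma adjusted p = 0.609) and Ireb2, which encodes the other, -0.06 (adjusted p = 0.84). Of 6 genes for iron and oxygen sensing, Hif1a (1.20, standard error 0.25, adjusted p = 0.00945) and Egln3, a hydroxylase that acts on HIF proteins and is induced by them (1.73, standard error 0.18, adjusted p = 0.000379), were higher. Hif1a was called higher at 2 of its 4 probe sets. The call of Hif1a was lost without moderation (adjusted p = 0.0884). Among all genes 17.4% were higher and 12.7% lower. In mitochondria, where iron goes into heme and iron-sulfur clusters, 5 of 12 measured genes were higher and 1 was lower. Of the 5, Isca2 (limma adjusted p = 0.0391) and Iscu (0.0454) were close to the threshold, and both lost their call with the replicate block and without FRG-7dNTBC replicate 1 or 2 or FRG+NTBC replicate 2 or 3, which left 3 genes higher. Without moderation Lyrm4 alone stayed called higher. On the log2 scale, the scaffold partner Lyrm4 (1.42), the ferredoxin Fdx1 (0.88) and the assembly factor Isca1 (0.81) were higher, and Abcb10, a transporter of the inner membrane, was lower by 1.08, a call lost without FRG-7dNTBC replicate 1 (adjusted p = 0.0588).

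**Figure D4:**
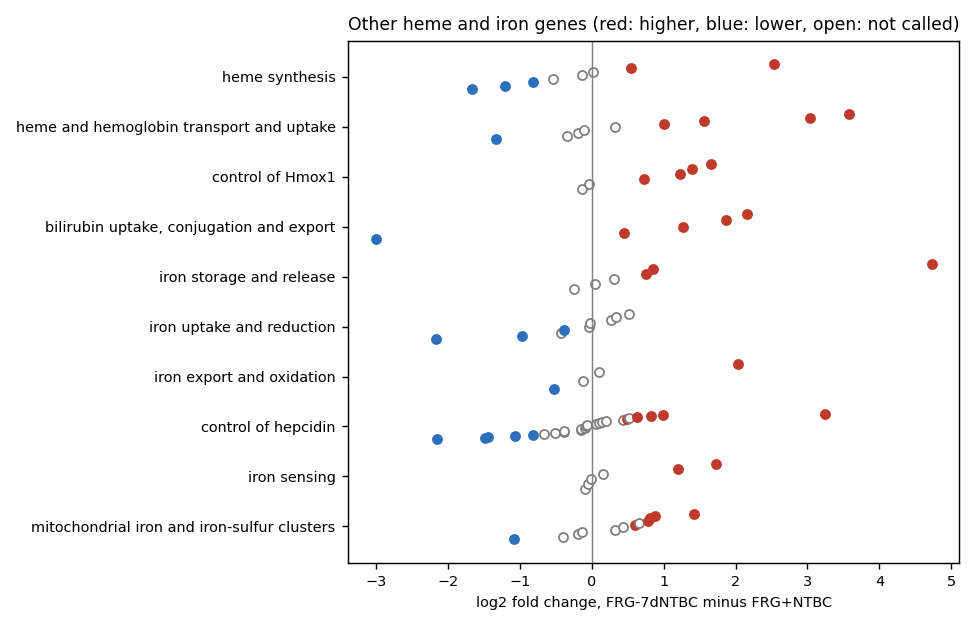
The horizontal axis gives the log2 fold change, FRG-7dNTBC over FRG+NTBC, of 90 further heme and iron genes in 10 groups, 1 point per gene at its brightest probe set. Filled points were called at an adjusted p under 0.05 from limma, 30 of them higher (red) and 15 lower (blue), and open points were not called.

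Over these 10 groups, 30 of 90 measured genes were higher, 15 were lower and 45 were not called, with a median log2 fold change of 0.08. At their brightest probe sets 4 of the 9 genes described here were higher and none was lower. Among all 18193 genes 17.4% were higher and 12.7% lower, with a median of -0.05.

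The genes whose values over the 6 livers lay nearest to those of Hmox1, by the distance between log2 values centred on their mean, were Cd9, a tetraspanin (distance 1.10), Cdkn1a, the cell cycle inhibitor p21 (1.20), and Mgst2, a microsomal glutathione transferase (1.24). Nearest to Tfrc were Cemip2 (0.33), the ribosome assembly kinase Riok2 (0.52) and the chaperone Hsp90aa1 (0.56), which share its low value in FRG+NTBC replicate 2. Nearest to Hamp were Timp2 (0.17), Lbh (0.20) and Rasgrp3 (0.20), which like Hamp were low in FRG-7dNTBC replicate 2. Distances over so few livers of 2 groups describe these arrays only.

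Across the arrays, log2 values of livers correlated at r = 0.98 to 0.99 within FRG-7dNTBC, 0.988 to 0.993 within FRG+NTBC and 0.93 to 0.955 between the groups, over all probe sets. Hpd, the target of the drug, was lower in FRG-7dNTBC livers (log2 fold change -1.10). Of 8 hepatocyte markers, 4 were lower (Hnf4a, Fga, Cyp2e1 and Tat) and none higher, against 12.7% and 17.4% of all genes. Only 2 were lower without FRG-7dNTBC replicate 1, FRG+NTBC replicate 2 or FRG+NTBC replicate 3, where Hnf4a and Cyp2e1 lost their call. Hnf4a was called lower at 1 of its 4 probe sets. The summed intensity of the 8 markers was 98531 to 107468 in FRG-7dNTBC and 115885 to 122987 in FRG+NTBC livers. Albumin (Alb) had a log2 fold change of 0.08. None of 6 markers of T, B and NK cells, which FRG mice lack, was called. Their sums were 145 to 154 in FRG-7dNTBC and 150 to 163 in FRG+NTBC livers. None of 5 cholangiocyte markers was called at its brightest probe set, but Epcam was called higher at 1 of its 2 probe sets. At an unadjusted p under 0.05 there was none of these lymphocyte markers, and 1 cholangiocyte marker was higher and 1 lower. When dim probe sets were left out, 1 of the 6 lymphocyte and 3 of the 5 cholangiocyte markers stayed. The lymphocyte markers thus say little about these cells. Of 6 stellate cell markers 1 was higher, but 2 were when FRG-7dNTBC replicate 2 was left out, and none was when FRG+NTBC replicate 3 was left out. With 3 livers against 3 an exact permutation test of 1 probe set cannot go below p = 0.1, so the calls rest on limma's model across all probe sets.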

How the data were processed

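Whole-liver RNA of 3 FRG-7dNTBC and 3 FRG+NTBC mice was hybridised to Affymetrix mouse expression arrays, 1 per mouse. The deposited intensity values are the authors' RMA output, which is background-corrected, quantile-normalized and summarised by median polish, with the Transcriptome Analysis Console named in the submitters' processing notes. They are on a linear scale, and 100% of those above an intensity of 100 are powers of 2 of a log2 value with 2 decimals. Their log2 was taken here. Probe sets were named from the platform annotation, in which 34945 have 1 gene symbol, 932 several and 9160 none, and were tested in R 4.3.3 with limma 3.58.1 (lmFit, eBayes), without covariates, with Benjamini-Hochberg adjustment over 45037 probe sets. The fit was first tested on simulated data. In lists, a gene stands at its brightest probe set, and other probe sets of the same gene can differ in their call. Members and lists were chosen with earlier results of these data known. Named are all members, the called genes of largest change in each list, at most 4, and a few well-known genes of it. For Hmox1, Tfrc and Hamp the 3 nearest genes are named. Of 97 listed genes 90 were measured. The number of arrays limits the precision. Blood analyses, histology and RT-qPCR were not analysed here. The closing section gives the alternatives.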

Additional observations from a re-analysis of the deposited data

How the results depend on the processing

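Over 15 alternative settings, which changed the scaling, filter, moderation, weights, block, offset or livers used, the 7 probe sets of Hmox1, Blvrb, Fth1 and Tfrc kept their call wherever they were tested. Of 208 values of member probe sets under these settings, 193 had the same direction and side of the threshold, 11 gained a call, none lost one and 4 changed sign. The sign changed for the dimmer Slc40a1 probe set after quantile normalization (-0.0317) and without FRG+NTBC replicate 1 (-0.0400, with a range of -0.0400 to 0.25 without each liver in turn), and for both probe sets of Hamp without FRG-7dNTBC replicate 2 (ranges of -0.465 to 0.045 and of -0.437 to 0.0933 without each liver). Ireb2 changed sign with array weights (0.0762) and without FRG+NTBC replicate 1 or replicate 3 (range -0.267 to 0.0633). Besides the livers named in the report, the calls of Gsta3, Cd163, Heph, Bmp6, Abcb10, Fdx1 (adjusted p = 0.065 from limma) and Isca1 (0.0556) were lost without moderation, and those of Cd163, Heph, Bmp6 and Abcb10 with 16 added to each value. Called lower were 2 member probe sets after scaling to a common 75th percentile, after quantile normalization and with array weights, and 1 without dim probe sets and with trend and robust moderation, against 0. Without each liver in turn this count was 0 to 1. The 75th percentile scaling gave 9669 probe sets lower over the array, against 6262, and 35.7% of calls higher, against 50.1%. Without moderation 3141 probe sets were higher, 3336 lower, and 17 of the other heme and iron genes were higher, against 30. Without each liver in turn, 3864 to 6400 probe sets were lower over the array. The replicate block left 7 member probe sets higher and 0 lower. Replicate numbers are shared between the groups without a stated meaning, the deviations of same-numbered livers correlated at 0.11, 0.03 and -0.16, and the block moved the array counts to 6076 higher and 5272 lower. A probe set annotated to both Trf and Srprb, added as an alternative, was not called (log2 fold change 0.00, adjusted p = 0.988 from limma). Dim features, such as Hmox1 on the drug, limit the size of a fold.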
